A study of Rattus norvegicus with 6 samples.

Results

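Aggrecan, versican and the genes that make, bind and break down hyaluronan were followed in primary nucleus pulposus cells of the rat, which fill the soft centre of each intervertebral disc. The 10 genes are Acan, Vcan, Hapln1, Has2, Has3, Cd44, Hyal1, Hyal2, Cemip and Tnfaip6, found by the Entrez identifiers of the deposited count table. Each matched 1 of its 17139 gene rows. Control cells received nothing (n = 3 libraries) and treated cells received bradykinin at 10 µM (n = 3 libraries). Bradykinin is a kinin peptide of inflammation and pain. No strain, genotype, age or duration of treatment is given in the sources used here, and the treated samples carry B2R in their titles. The series asks how bradykinin affects gene expression in these cells, senescence and matrix turnover above all. The labels do not say whether replicates came from separate animals or cultures, so the spread behind each p-value is that of these libraries and may be technical.

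Aggrecan is a large proteoglycan whose chondroitin sulfate chains draw water into the disc core and let it bear load. Many aggrecan molecules are held on a single hyaluronan chain by link protein, and versican is a relative of aggrecan that binds hyaluronan in the same way. Hyaluronan is spun out at the cell surface by hyaluronan synthases, bound there by CD44, cross-linked with the help of the product of Tnfaip6, and broken down by hyaluronidases and with the help of CEMIP. In bulk RNA, fewer cells that express a gene and less RNA of it per cell cannot be told apart.

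Total counts per library ranged from 12883067 to 15462764. Levels are given as CPM (counts scaled by the effective size of each library), which are not per length, so they are compared between libraries and not between genes. Where values follow each other, they are those of replicates 1, 2 and 3 in that order. One treated library, bradykinin replicate 3, was unlike the rest. Its genes deviated from the mean of the other libraries with an SD of 0.61 (log2), where the same SD was 0.25 to 0.29 for each of the others. Its deviation fell with the genomic span of the gene (Spearman's rho -0.51 over 11633 genes, a description), from a median of 0.45 in the shortest 10% of genes to -0.58 in the longest 10%. Fold changes of the members and of the named related genes are given with and without it. It was singled out with its deviation known, so p-values without it depend on that choice. The common coefficient of variation between replicates estimated by edgeR was 0.168 in 6 libraries and 0.054 in the 5 without it. Among marker genes of the labelled tissue, Pax1 (82.3 to 117 CPM), Cdh2 (65.4 to 83.5 CPM) and Foxf1 (27.03 to 30.8 CPM) were present in every library. Lower were Cd24 (4.33 to 7.44 CPM), Car3 (2.60 to 8.49 CPM), Krt8 (0.788 to 1.76 CPM) and Car12 (0.455 to 1.02 CPM). Tbxt, Krt18, Krt19, Shh and Noto had no matched row. Of the 7 chondrocyte-like markers, the cartilage collagen gene Col2a1 had 0 to 2 counts and Col9a1 had 0. Acan, itself a member, was at 257 to 511 CPM, and Sox9 was at 15.3 to 27.9 CPM. Lower were Comp (3.31 to 5.79 CPM), Col11a2 (0.911 to 1.97 CPM) and Matn3 (0.779 to 1.10 CPM). These 7 markers summed to 324 to 547 CPM with bradykinin and 286 to 304 CPM in controls, most of it Acan. The fibroblast collagen gene Col1a1 was at 37621 to 48671 CPM. Scx (54.5 to 91.4 CPM) and Mkx (52.4 to 72.6 CPM), also listed as fibroblast and annulus fibrosus markers, were present in every library. Tnmd of the same list was near the floor, at 5 to 17 counts (0.351 to 1.11 CPM). The 8 markers of that list summed to 65954 to 81983 CPM with bradykinin and 69574.5 to 74575 CPM in controls. Summed over the 7 of 12 nucleus pulposus and notochord markers with a row, the level was 187 to 211 CPM with bradykinin and 221 to 239 CPM in controls. The 5 smooth muscle markers summed to 2230, 2267 and 3122 CPM with bradykinin and 3090, 3023 and 3151 CPM in controls. Bradykinin replicate 3 thus lay among the controls there, and replicates 1 and 2 below them. Endothelial markers (4 of 6) summed to no more than 1.53 CPM in any library. Those of macrophages and blood (4 of 7) summed to 10.2 to 14.1 and 8.79 to 9.90 CPM, of which Cd14 made up 8.31 CPM or more in every library. The part of these shifts in the results was not tested.

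**Figure D1:**
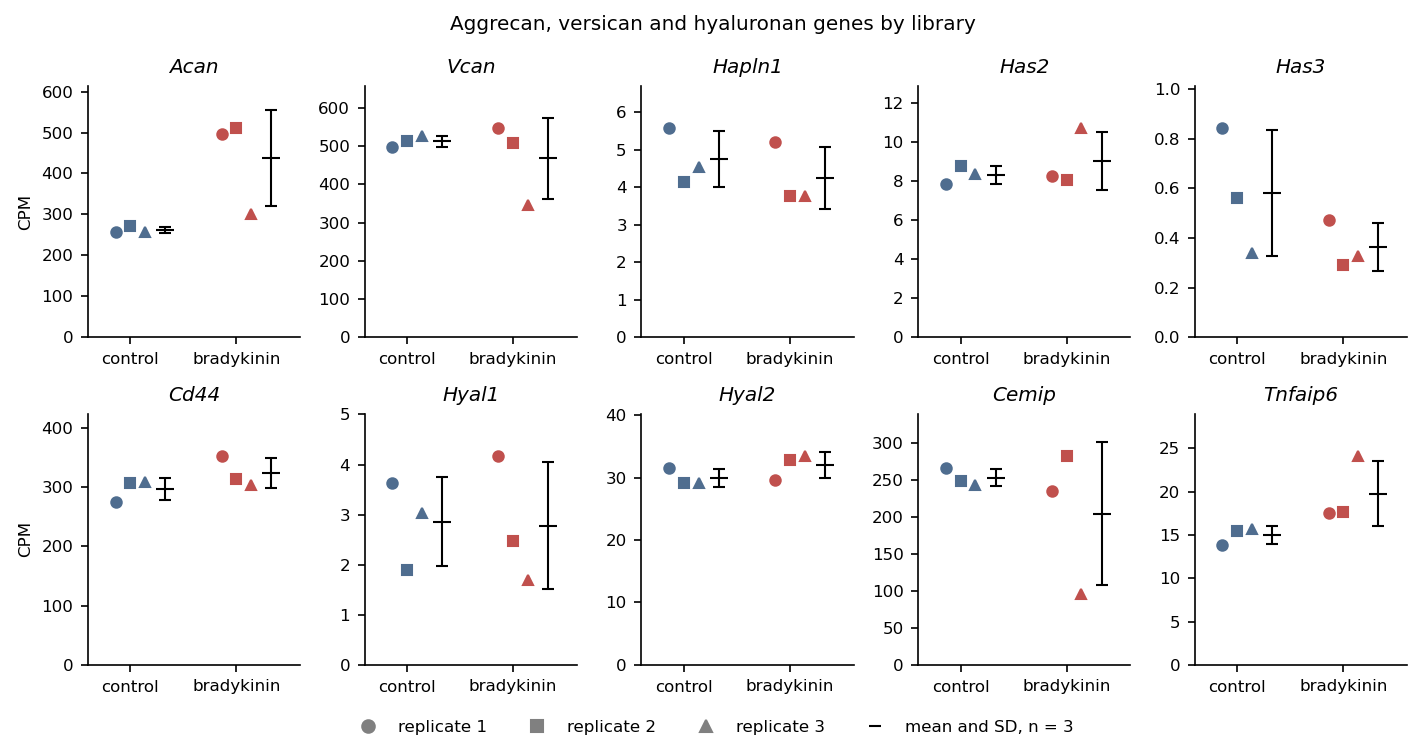
CPM of the 10 genes in each library, 1 panel per gene with its own vertical axis from 0, where symbols mark replicate numbers and black bars the mean and SD of 3 libraries. Acan was between 301 and 511 CPM with bradykinin and between 257 and 272 CPM in controls, while Cemip and Vcan were low in bradykinin replicate 3 (triangle).

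Acan, which encodes the aggrecan core protein, had the largest difference between groups of the 9 tested members. It stood at 498, 511 and 301 CPM with bradykinin and at 257, 272 and 257 CPM without. Every bradykinin library was above every control, with replicates 1 and 2 at 1.90 and 1.95 times the control mean and replicate 3 at 1.15 times. Over the 6 libraries the log2 fold change was 0.74 ± 0.19 (SE, 95% interval 0.28 to 1.19), which did not pass over all genes (edgeR adjusted p = 0.626, unadjusted p = 0.00591). Of all 12413 genes tested, 0 passed (0%) by edgeR, 849 (6.84%) had an unadjusted p under 0.05, DESeq2 called 44 (0.354%) and limma-voom 0. Without bradykinin replicate 3 Acan rose by a log2 fold change of 0.95 ± 0.04 (95% interval 0.85 to 1.04, edgeR adjusted p = 1.56e-07), as the 1 of 9 tested members that passed. In that fit 388 of 12536 genes passed (3.1%), 244 of them higher (1.95%). Changing the scaling or tool there, or leaving out a further control, kept the call. The log2 fold changes were 0.91 to 0.97, with edgeR or DESeq2 adjusted p of 3.8e-05 at most. With bradykinin replicate 1 or 2 as the only treated library, the log2 fold change was 0.92 or 0.97. All of these rest on the choice to leave out replicate 3.

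Vcan, which encodes the relative versican, did not pass in either fit. It was at 548, 509 and 346 CPM with bradykinin and 497, 515 and 526 CPM without. The bradykinin libraries lay above, among and below the controls, replicate 3 being the low one. Its log2 fold change was -0.13 ± 0.17 (95% interval -0.52 to 0.26, edgeR adjusted p = 0.781), and 0.04 ± 0.05 without that library (-0.06 to 0.14).

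The ratio of Acan to Vcan counts within a library needs no scaling between libraries. It was 0.908, 1.005 and 0.870 with bradykinin and 0.518, 0.528 and 0.489 without. Every bradykinin library was above every control. In bradykinin replicate 3 Acan was at 1.15 times and Vcan at 0.676 times its control mean, so the low Vcan of that library, a gene of long genomic span, made up more of its ratio than Acan did. In replicates 1 and 2 Acan was at 1.90 and 1.95 times and Vcan at 1.07 and 0.993 times. On the log2 scale the means were -0.11 ± 0.11 with bradykinin and -0.97 ± 0.06 in controls (SD, n = 3 libraries each), a difference of 0.86, or 1.81 times. The exact two-sided permutation test gave p = 0.1, the smallest that 3 against 3 libraries allow (0.2 adjusted over the 2 ratios computed). Over the fits that leave out 1 library, the difference was 0.80 to 0.90. As background, the ratio to Vcan was higher in every bradykinin library than in every control for 8.64% of 12412 genes. Among the 5020 of these with an average log2 CPM of 5 or more, 1 had a wider gap between the groups than Acan and 3 a larger difference of the means. The ratio was picked with the levels of Acan known, so its direction is not independent evidence.

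**Figure D2:**
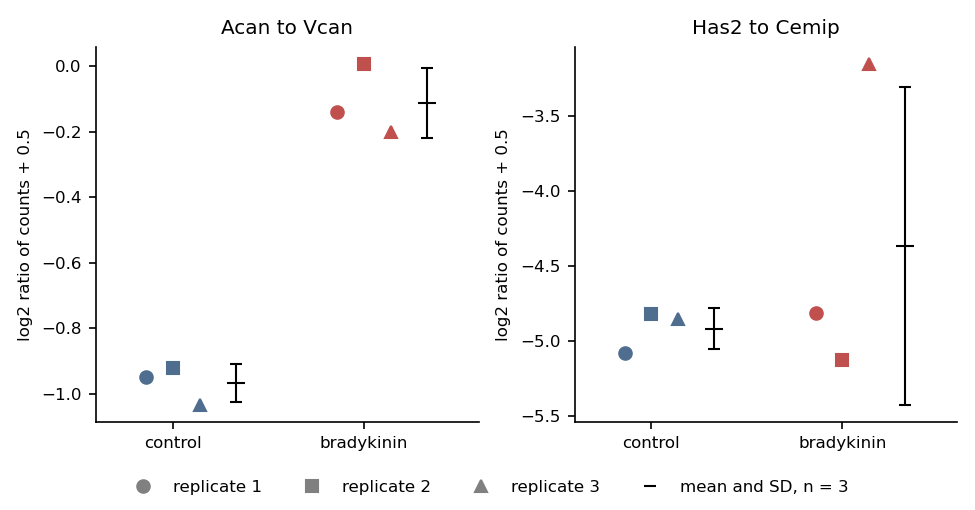
Log2 ratio of counts within each library, Acan to Vcan on the left and Has2 to Cemip on the right, with symbols for replicate numbers and black bars for mean and SD (n = 3). The Acan to Vcan ratio separates the groups in all 6 libraries, whereas the Has2 to Cemip ratio of bradykinin replicate 3 (-3.15) stands alone above the other 5.

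The sequences just upstream of the annotated starts are shown for Acan and Tnfaip6, the 2 members whose groups did not overlap, and for Vcan, the partner in the ratio. They are the 200 bases before the start, from RefSeq on the GRCr8 build, at chr1:142390751-142390950 (plus strand) for Acan, chr2:22595956-22596155 (minus strand) for Vcan, where the first of 2 listed starts was taken, and chr3:56911198-56911397 (plus strand) for Tnfaip6. Each is printed 5′ to 3′, and capitals mark motif matches on either strand. The GC box was searched as GGGCGG and the AP-1 site as TGANTCA. The TATA box was searched as TATAAA and the core of a SOX site as ACAAAG.
Acan: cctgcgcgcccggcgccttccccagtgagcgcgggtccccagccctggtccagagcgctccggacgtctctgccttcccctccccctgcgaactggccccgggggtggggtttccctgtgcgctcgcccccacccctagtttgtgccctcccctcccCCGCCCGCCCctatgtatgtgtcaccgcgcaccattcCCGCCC
Vcan: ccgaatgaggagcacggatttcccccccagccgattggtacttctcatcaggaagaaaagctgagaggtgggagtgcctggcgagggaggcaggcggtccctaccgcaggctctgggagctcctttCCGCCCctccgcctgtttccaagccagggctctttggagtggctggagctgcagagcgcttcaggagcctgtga
Tnfaip6: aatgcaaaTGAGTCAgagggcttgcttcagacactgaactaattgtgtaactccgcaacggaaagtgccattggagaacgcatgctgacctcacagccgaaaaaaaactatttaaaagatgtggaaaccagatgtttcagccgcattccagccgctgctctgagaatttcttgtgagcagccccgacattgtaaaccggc
In the 250 bases upstream, Acan held 3 GC boxes, of which 2 overlap, Vcan held 1, and Tnfaip6 held none but the only AP-1 match among the 8 members with a promoter in the table. Of all 33469 listed promoters, 30.5% held a GC box, 6.34% an AP-1 match, 12.9% a TATA box and 16.3% a SOX core in the same window. G and C made up 73.6% of the Acan window, 61.6% of the Vcan window and 48.8% of the Tnfaip6 window. These are matches of letters and not shown to be bound.

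Hapln1 encodes link protein, which locks aggrecan onto hyaluronan, and its gene is the coding neighbour of Vcan in the rat genome, as Hapln3 is of Acan. Hapln1 counts were low, at 66, 52 and 58 with bradykinin and 86, 59 and 67 without. These correspond to 5.20, 3.78 and 3.77 CPM and to 5.58, 4.14 and 4.53 CPM, and the groups overlapped. The log2 fold change of -0.17 ± 0.21 (95% interval -0.67 to 0.33) did not pass (edgeR adjusted p = 0.785), nor did -0.09 ± 0.22 without bradykinin replicate 3. Hapln3, a related link protein gene, was at 299.8 to 311 CPM with bradykinin and 282 to 308 CPM in controls, also overlapping (0.072 ± 0.087 in 6 libraries, 0.088 ± 0.049 in 5).

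Has2 and Has3 encode hyaluronan synthases. Has2 was at 8.28, 8.06 and 10.7 CPM with bradykinin and 7.86, 8.77 and 8.38 CPM without. Replicates 1 and 2 lay among the controls and replicate 3 above them, so that the log2 fold change was 0.12 ± 0.16 with replicate 3 and -0.03 ± 0.14 without it (95% intervals -0.26 to 0.50 and -0.33 to 0.27). Neither passed (edgeR adjusted p = 0.801 and 0.957). It overlaps a long non-coding gene, and since strand was not stated their reads cannot be told apart. Has3 had 6, 4 and 5 counts with bradykinin and 13, 8 and 5 without, too few to be tested. The summed counts of Has3, 15 and 26, give a scaled ratio of bradykinin to control of 0.613 (exact 95% interval 0.302 to 1.20, Clopper-Pearson, counting error only). That interval spans lower, equal and slightly higher levels, so a moderate difference in Has3 could not be detected at this depth.

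Cd44 encodes the main cell-surface receptor of hyaluronan. It was at 353, 314 and 304.5 CPM with bradykinin and 275, 307 and 308 CPM without. Replicates 1 and 2 were above every control and replicate 3 was not. As background, 16.2% of all tested genes were above every control in replicates 1 and 2. The log2 fold change was 0.12 ± 0.10 (95% interval -0.11 to 0.36, edgeR adjusted p = 0.741). Without bradykinin replicate 3 it was 0.17 ± 0.06 (0.04 to 0.30) and did not pass over all genes either (adjusted p = 0.192).

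Tnfaip6 encodes TSG-6, a secreted hyaluronan-binding protein induced by inflammatory signals that transfers heavy chains onto hyaluronan. It was at 17.5, 17.7 and 24.1 CPM with bradykinin and 13.8, 15.4 and 15.7 CPM without. All bradykinin libraries were above all controls, replicate 3 most of all. With the 95% interval from 0.03 to 0.78, its log2 fold change of 0.40 ± 0.16 had an unadjusted p of 0.0385 by edgeR and did not pass over all genes (adjusted p = 0.714). Without replicate 3 it was 0.23 ± 0.11 (adjusted p = 0.332). Acan and Tnfaip6 were thus the 2 of 9 tested members with no overlap between groups, both higher, where 8.84% of all tested genes were higher without overlap and 8.71% lower.

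Hyaluronan is cut by the enzymes of Hyal1, which acts in lysosomes, and Hyal2, which is anchored at the cell surface, and neither gene moved beyond its spread. Hyal2 was at 29.6, 32.8 and 33.5 CPM with bradykinin and 31.6, 29.1 and 29.1 CPM without (log2 fold change 0.10 ± 0.11, 95% interval -0.15 to 0.34, edgeR adjusted p = 0.757), and 0.06 ± 0.08 without replicate 3. Hyal1 had 53, 34 and 26 counts with bradykinin and 56, 27 and 45 without. It differed as much within groups as between them, at -0.06 ± 0.38 with a wide 95% interval from -0.95 to 0.83 (adjusted p = 0.962), and at 0.20 ± 0.31 without replicate 3. The span of Hyal1 overlaps those of Hyal3 and Naa80, so counts of these genes are uncertain. Hyal3 was at 38.1, 33.5 and 24.6 CPM with bradykinin and 38.8, 34.7 and 35.9 CPM without (-0.19 ± 0.17 in 6 libraries, -0.028 ± 0.083 in 5).

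Cemip encodes a hyaluronan-binding protein needed for hyaluronan breakdown in skin and synovial fibroblasts, and its level in 1 bradykinin library was far from all others. It was at 234, 283 and 95.9 CPM with bradykinin and 266, 249 and 244 CPM without. Replicates 1 and 2 lay on either side of the controls, while replicate 3 was at 0.379 times the control mean. Only 3.22% of tested genes deviated further in that library. The log2 fold change was -0.31 ± 0.34 (95% interval -1.10 to 0.48, edgeR adjusted p = 0.760), and 0.03 ± 0.07 without replicate 3 (-0.12 to 0.18). Set against synthesis, the log2 ratio of Has2 to Cemip counts was -4.82, -5.12 and -3.15 with bradykinin and -5.08, -4.82 and -4.86 without. The groups overlapped (difference 0.55, exact two-sided permutation p = 0.7, also 0.7 adjusted over the 2 ratios). Without bradykinin replicate 3 the difference was -0.05.

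**Figure D3:**
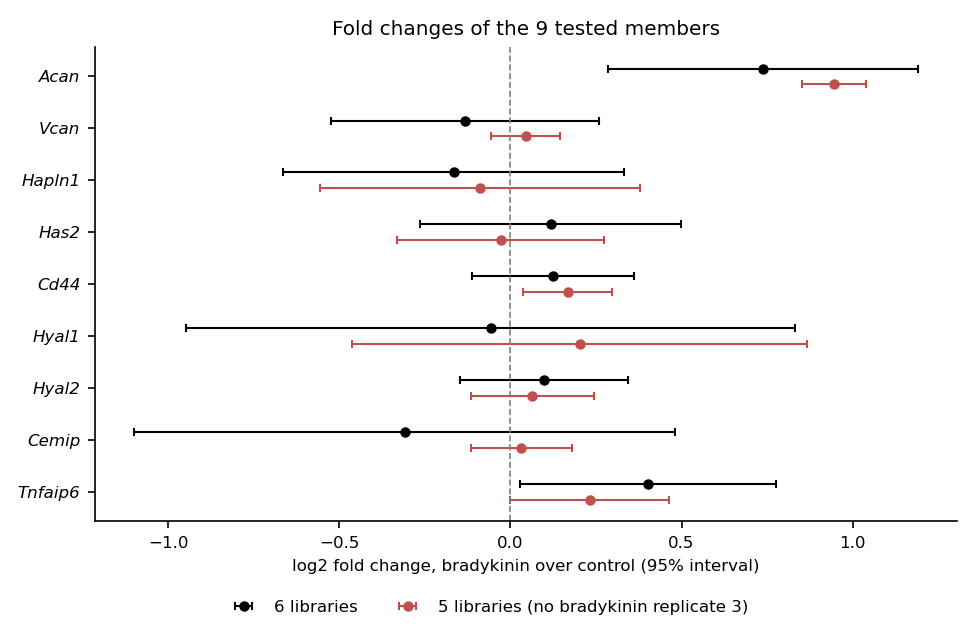
Log2 fold changes of the 9 tested members, bradykinin over control, as points with 95% intervals, for 6 libraries (black) and for 5 libraries without bradykinin replicate 3 (red). The interval of Acan lies above 0 in both fits and narrows to 0.85 to 1.04 without that library, and that of Cemip shrinks from -1.10 to 0.48 down to -0.12 to 0.18.

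By genomic span in 10 equal classes from short to long, Cemip was in class 10, Vcan and Cd44 in class 9, Acan and Hapln1 in class 8, and Hyal1 and Hyal2 in class 1. The log2 deviation of bradykinin replicate 3 from the other libraries was -1.41 for Cemip, -0.58 for Vcan, -0.18 for Acan and -0.03 for Cd44. Tnfaip6 (class 5, 0.59) and Has2 (class 6, 0.37) deviated upward, where the medians of their classes in that library were 0.078 and -0.0098. Hyal1 (-0.75) went down although its span is short, on 26 counts in that library. With an offset for span in the fit of 6 libraries, chosen after the data were seen, the log2 fold change was 0.80 for Acan (edgeR adjusted p = 0.285), -0.02 for Vcan, -0.19 for Cemip, 0.25 for Cd44 and 0.36 for Tnfaip6. None of the 9 tested members passed in that fit, in which 1 gene of all passed.

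**Figure D4:**
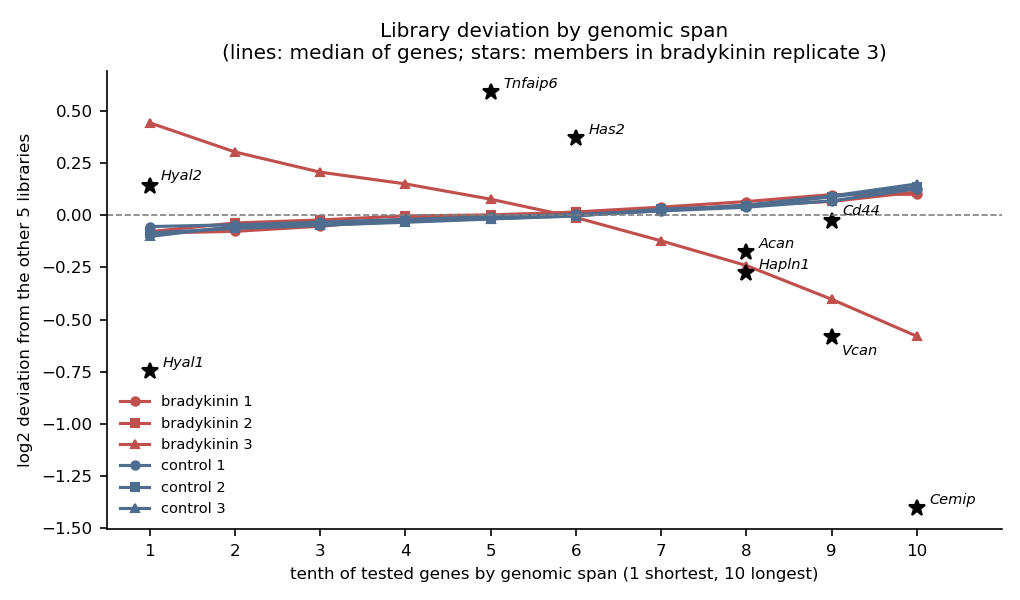
Log2 deviation of each library from the other 5 (vertical) by 10 equal classes of tested genes ordered by genomic span (horizontal), where lines join medians over genes and stars are the members in bradykinin replicate 3. The line of that library falls from 0.45 to -0.58, and Cemip lies below it at -1.41.

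Among 13 tested genes of other hyaluronan steps (27 listed), 0 passed with or without bradykinin replicate 3. The median log2 fold change was 0.003 in 6 libraries, against 0.01 over all genes tested. The smallest p was that of Hmmr, a hyaluronan-mediated motility receptor that also serves the mitotic spindle. It was at 85.5, 69.5 and 90.5 CPM with bradykinin and 63.4, 68.6 and 64.8 CPM without (0.32 ± 0.12, edgeR adjusted p = 0.714). Gfpt1, the enzyme that opens hexosamine synthesis, was at 175, 183 and 139 CPM with bradykinin and 199, 198 and 208 CPM in controls (-0.28 ± 0.12, adjusted p = 0.733). Cemip2, a relative of Cemip, had a log2 fold change of -0.31 ± 0.18, and Ugp2, which makes UDP-glucose, of 0.21 ± 0.14. Without bradykinin replicate 3 the values were 0.24 ± 0.08 for Hmmr, -0.17 ± 0.05 for Gfpt1, -0.15 ± 0.11 for Cemip2 and 0.063 ± 0.073 for Ugp2, and the list median was -0.028.

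Matrix partners of the 2 proteoglycans gave 1 call. Tnc, which encodes tenascin-C, was at 4031, 4170 and 2720 CPM with bradykinin and 3175, 3111 and 3237 CPM without. Replicates 1 and 2 were above the controls and replicate 3 below them. Tnc did not pass in 6 libraries (0.20 ± 0.17, edgeR adjusted p = 0.746) but rose without replicate 3 (0.37 ± 0.04, adjusted p = 1.5e-04). It also passed in the further alternatives there that kept bradykinin replicates 1 and 2. The other 8 tested genes of the 13 listed did not pass in either fit (list median 0.02 in 6 libraries). Fbn1, which encodes the versican-binding microfibril protein fibrillin-1, was at 1025, 1025 and 440 CPM with bradykinin and 1014, 1018 and 1023 CPM without (-0.30 ± 0.29 in 6 libraries, 0.0093 ± 0.038 in 5). Fbln2 (fibulin-2) and Matn4 (matrilin-4) had log2 fold changes of -0.12 ± 0.12 and 1.01 ± 0.66, the latter on under 2 CPM in every library, and of -0.0094 ± 0.044 and 0.94 ± 0.69 without bradykinin replicate 3. The lecticans Bcan and Ncan had at most 0.0676 and 0.13 CPM in any library.

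Proteases that can cleave aggrecan or versican, listed with their inhibitor Timp3, were on the lower side as a list in 6 libraries. The median log2 fold change was -0.21, with 10 of 12 tested genes below 0, Timp3 among them, and 0 passed there. Over all genes tested, 6372 of 12413 were above 0 and the median was 0.008. Without bradykinin replicate 3 the list's median was -0.085, with 5 of 13 tested genes above 0, where 6269 of all 12536 were. The list's median deviation in that library was -0.27. In those 5 libraries 3 of the 13 genes passed as lower, Adamts9 (-0.69 ± 0.14), Adamts15 (-0.46 ± 0.11) and Mmp3 (-0.22 ± 0.05). Of all genes tested there, 1.15% passed as lower. The list was chosen with earlier results of these data known, so its share is a description. Adamts15, a hyalectanase, was at 18.9, 17.6 and 11.97 CPM with bradykinin and 28.2, 23.8 and 23.4 CPM without. Adamts9, a versican- and aggrecan-cleaving protease, was at 9.38, 9.66 and 3.12 CPM with bradykinin and 17.4, 15.9 and 12.98 CPM in controls. Both were below every control in all bradykinin libraries, whereas Mmp3, a stromelysin gene, was at 171, 185 and 226 CPM with bradykinin and 205 to 209.5 CPM in controls, above them in replicate 3. Leaving out control replicate 1 or 2 as well removed these 3 calls, and leaving out control replicate 3 kept that of Adamts9 alone. The log2 fold changes stayed negative in all 8 further alternatives, at -0.80 to -0.60 for Adamts9, -0.52 to -0.37 for Adamts15 and -0.28 to -0.16 for Mmp3. Mmp14, a membrane-bound metalloprotease gene, and Htra1, a serine protease gene, had log2 fold changes of -0.23 ± 0.09 and 0.36 ± 0.15 in 6 libraries (edgeR adjusted p = 0.727 for both), and of -0.17 ± 0.04 and 0.19 ± 0.06 in 5 (adjusted p = 0.0573 and 0.108). Adamts1, also on the list, was at 2162, 2370 and 1804 CPM with bradykinin and 2065, 2008 and 2008 CPM without. Its log2 fold change was 0.059 ± 0.12 in 6 libraries and 0.16 ± 0.04 in 5 (edgeR adjusted p = 0.862 and 0.0720). Mmp13, another metalloprotease gene of the list, was at 96.1, 112 and 114 CPM with bradykinin and 139, 124 and 119 CPM without. It was lower without overlap, as were 8.71% of all tested genes. Its log2 fold change was -0.25 ± 0.11 in 6 libraries and -0.29 ± 0.08 in 5 (edgeR adjusted p = 0.737 and 0.0621). The main aggrecanase genes Adamts4 and Adamts5 did not pass in either fit. Adamts4 was at -0.20 ± 0.18 in 6 libraries and -0.085 ± 0.18 in 5. Adamts5 was at -0.22 ± 0.28 in 6 libraries and, with the sign reversed, at 0.074 ± 0.066 in 5, and was at 35.2 CPM in that library and 72.7 to 83.6 CPM in all others. Timp3, which encodes their inhibitor, was at 18.5, 18.96 and 8.92 CPM with bradykinin and 18.3, 18.5 and 18.2 CPM without (-0.25 ± 0.27 in 6 libraries, 0.032 ± 0.096 in 5).

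Synthesis of the chondroitin sulfate chains that aggrecan and versican carry did not pass for any of 18 tested genes (21 listed) in either fit, with a median log2 fold change of -0.05 in 6 libraries and 0.03 in 5. Csgalnact2, an enzyme that starts the chains, was at 130, 142 and 141 CPM with bradykinin and 119, 123 and 118 CPM in controls (0.20 ± 0.09), and its relative Csgalnact1 had -0.19 ± 0.11. Papss1, which makes the sulfate donor, had -0.16 ± 0.09 and the chain-initiating xylosyltransferase gene Xylt2 -0.21 ± 0.13 (edgeR adjusted p = 0.737 for each of the 4). In 5 libraries Csgalnact2 was at 0.18, Csgalnact1 at -0.13, Papss1 at -0.14 and Xylt2 at -0.10. Lysosomal enzymes that take apart hyaluronan, chondroitin sulfate or related chains gave 0 of 7 calls in either fit (median -0.15 in 6 libraries). Galns was at -0.21 ± 0.12, Idua at -0.25 ± 0.15, Arsb at -0.16 ± 0.10 and Hexa at 0.12 ± 0.14. In 5 libraries the lysosomal median was -0.087, Galns was at -0.13, Idua at -0.11, Arsb at -0.10 and Hexa at -0.018. The SOX factors that drive the aggrecan enhancers in cartilage gave 0 of 3 calls in either fit. Sox9 was at 22.5, 27.9 and 15.3 CPM with bradykinin and 22.4, 24.7 and 21.7 CPM without, which did not follow the pattern of Acan. Its log2 fold change was -0.068 ± 0.21 in 6 libraries and 0.14 ± 0.11 without bradykinin replicate 3. Sox5, Sox6 and Sox9 each had their lowest level in that library. Sox5 was at 0.15 ± 0.40 with it and 0.51 ± 0.23 without it (unadjusted p = 0.0461, adjusted p = 0.319 by edgeR), where 5.04 and 4.14 CPM stood against 2.74 to 3.99 CPM in controls. Sox6 was at -0.29 ± 0.28 with it and -0.018 ± 0.16 without it.

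**Figure D5:**
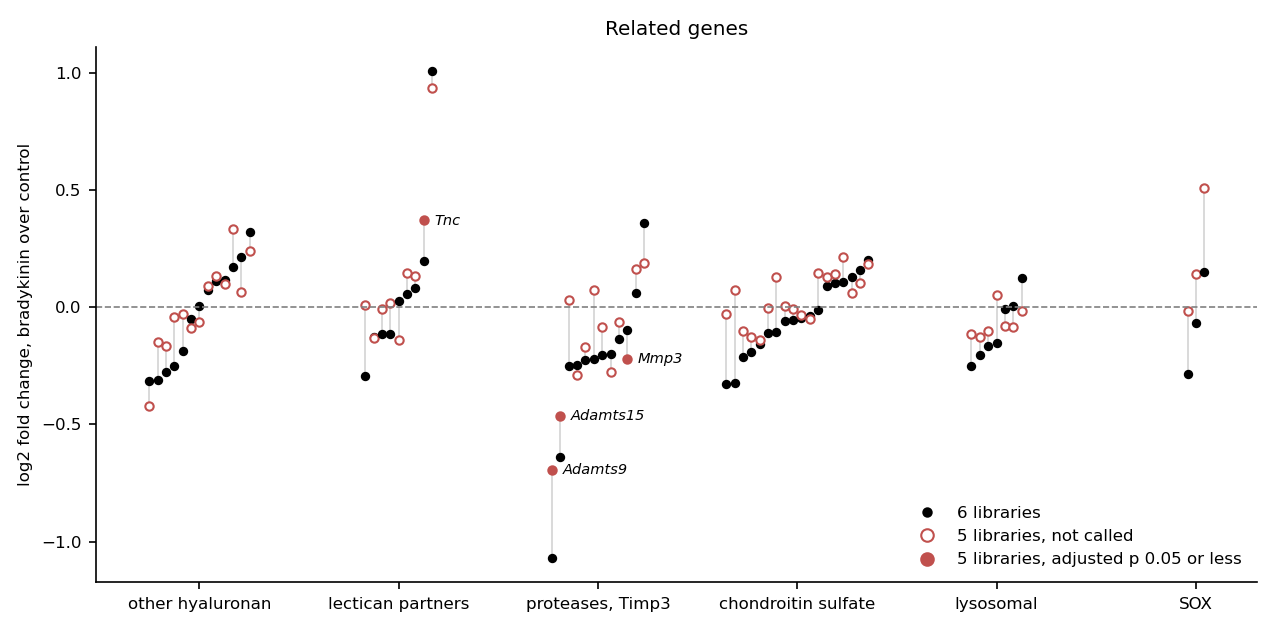
Log2 fold changes, bradykinin over control, of the tested genes of the 6 related lists, in 6 libraries (black) and 5 libraries without bradykinin replicate 3 (red, filled where the adjusted p is 0.05 or less). Filled points are Tnc above 0 and Adamts9, Adamts15 and Mmp3 below it.

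Across the 6 libraries, the genes with levels most like Acan among 4917 were Ehd4, an endocytic recycling protein (Pearson's r = 0.991), Txnip, an inhibitor of thioredoxin (0.990), Enc1, an actin-binding kelch protein (0.981), Itga7, a laminin receptor subunit (0.977), and Nptxr, a pentraxin receptor (0.977). All 5 shared with Acan high values in bradykinin replicates 1 and 2 and a lower one in replicate 3. Txnip was at 277, 278 and 229 CPM with bradykinin and 223, 225 and 213 CPM without, and Itga7 at 52.3, 61.5 and 36.6 CPM and at 29.5, 29.8 and 25.9 CPM. In the fit of 6 libraries none of these passed, and without bradykinin replicate 3 all 5 did (edgeR adjusted p from 3.87e-05 for Itga7 to 0.0175 for Ehd4). As they were picked for levels like those of Acan, these calls are a description. The likeness is a description over 6 libraries that share 2 groups.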

How the data were processed

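Polyadenylated RNA was sequenced from 3 bradykinin and 3 control libraries, grouped by the treatment label, with replicate numbers from the titles. The authors deposited raw whole-number counts for each Ensembl gene, with an Entrez identifier for most genes. The submitters' processing notes name the build Rnor_6.0, RSEM 1.3.3, HISAT2 2.2.1, fastp 0.23.2, Bowtie2 2.4.5 and DESeq2 1.34.0. The sources used here give neither how RSEM estimates became whole numbers nor whether the kit keeps strand.

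The identifiers were matched to symbols in a RefSeq table of the GRCr8 assembly, which named 15073 of 17139 genes, 188 of them with several symbols. As that assembly is not the build of the counts, it served only for names, neighbouring genes, the order of genes by genomic span, and promoter sequences. CPM are counts over the TMM-effective library size. The comparison of groups used edgeR 4.0.16 in R 4.3.3, with filterByExpr, TMM and a two-sided quasi-likelihood F test, adjusted by Benjamini-Hochberg over all 12413 genes tested (12536 without bradykinin replicate 3), with an adjusted p of 0.05 or less as the call. SE is the size of the log2 fold change over the square root of F, and intervals are at 95%. The test was checked on simulated counts with known changes. These gave every gene the same dispersion and had no deviating library, so they cannot show how the test behaves with bradykinin replicate 3. Ratios within a library, on counts plus 0.5, were compared by an exact two-sided permutation test over samples (SciPy 1.17.1).

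The members, the related lists, the ratios and the fits without bradykinin replicate 3 were chosen with earlier results of these data known. All 10 members are named. From each related list the 4 genes with the smallest p in 6 libraries are named, with every gene called with or without bradykinin replicate 3. Hyal3, Hapln3, Timp3, Adamts1, Mmp13 and the aggrecanase genes Adamts4 and Adamts5 were named after their values were seen. Likeness to Acan is Pearson's r of log2 CPM (prior count 2) over the 6 libraries, among genes with a symbol and an average log2 CPM of 5 or more. Alternatives were DESeq2 1.42.0, limma-voom (limma 3.58.1), scaling by library totals or RLE, the replicate block, leaving out each library, no filter or 1 CPM in at least 3 libraries, several of these without bradykinin replicate 3 and, chosen after seeing the data, an offset for gene span.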

Additional observations from a re-analysis of the deposited data

How the results depend on the processing

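In 6 libraries no member passed under RLE size factors, library totals, DESeq2, limma-voom, either other filter, the replicate block, the gene span offset or with any library but bradykinin replicate 3 left out. Acan stayed positive there (0.61 to 0.80, adjusted p of 0.130 at the least). Calls over all genes were 44 with DESeq2, 1 with the gene span offset and 0 to 388 with 1 library left out, of members 0 to 1, and of related genes 0 to 4. Without bradykinin replicate 3 there were 374, 1 and 4 calls (all genes, members, related genes) with RLE size factors, 347, 1 and 7 with library totals, where the split was 162 higher and 185 lower, and 347, 1 and 8 with DESeq2. Leaving out a further library there gave 138 to 333, 1 and 1 to 5. With 1 bradykinin library, it was assumed to vary like the controls.

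Members near 0 changed sign, mostly without bradykinin replicate 3, and the cause was not tested. There, Vcan was at 0.042 with RLE, 0.013 with library totals and 0.042 with DESeq2, Has2 at -0.031, -0.061 and -0.031, Hyal1 at 0.20, 0.17 and 0.21, and Cemip at 0.030 with RLE and 0.029 with DESeq2. Hyal2 was at -0.026 with the span offset. With 1 or 2 libraries left out, Vcan ranged from -0.26 to 0.094, Hapln1 from -0.33 to 0.13, Has2 from -0.074 to 0.19, Hyal1 from -0.47 to 0.54, Hyal2 from -0.016 to 0.15 and Cemip from -0.62 to 0.16, and the Has2 to Cemip difference from -0.053 to 0.93.

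Same-numbered libraries did not deviate together from their group means (r = -0.09, -0.02 and -0.05 for replicates 1, 2 and 3), and no library correlated best with its own number. Bradykinin replicate 3 enters the mean of its group, so these values cannot show that the libraries were unpaired. With the replicate block 0 genes passed, Acan was at 0.70, and the ratio differences of 0.86 (Acan to Vcan) and 0.55 (Has2 to Cemip) had exact sign-flip p of 0.25, the smallest possible, and 0.75. Has3, at 4 to 13 counts per library, is limited by depth.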
